A study of Mus musculus with 6 samples.

Results

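The immediate early and SRF-driven response was followed through 10 genes in cultured mouse granulosa cells. These are Srf, Egr1, Egr2, Fos, Fosb, Fosl1, Junb, Ier2, Csrnp1 and Klf6. They were chosen by gene name with the FPKM values and counts of these same libraries already known, both between the groups and between the replicates, and were taken by symbol from the deposited table, where 10 of 10 symbols matched 1 row each among 30862 gene rows. RNA was sequenced in 6 libraries of granulosa cells isolated by enzyme digestion from the ovaries of 21-day-old female ICR mice. After 12 h of adherence, the cells of 3 control libraries were kept without particles (0 µg/mL, labelled WT) and those of 3 libraries were given sonicated polystyrene microplastics (PS-MP) of 100 nm at 750 µg/mL, in both groups for 24 h. No genetic change or other agent is named for either group, and the labels do not say how many animals were pooled or whether libraries with the same number came from the same cell isolation. All p-values below thus rest on differences among 6 libraries whose spread may be partly technical.

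Immediate early genes are transcribed within minutes of a growth factor, hormone or mechanical signal, without new protein synthesis, and most encode transcription factors whose mRNA is short-lived. Serum response factor (SRF) binds the CArG box in many of their promoters. With Elk-type cofactors, which are phosphorylated by MAP kinases, it drives immediate early genes, and with the actin-sensing cofactors MRTF-A and MRTF-B it drives genes of the contractile cytoskeleton. Products of the Fos and Jun families pair to form the AP-1 factor. In follicles, the ovulatory surge of luteinizing hormone induces Egr1 and Fos family genes in granulosa cells.

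The sequences that tie the list to SRF are shown first, because a CArG box is the element through which SRF acts. A CArG box, searched on both strands, was CC, then 6 bases that are each A or T, then GG. In the 500 bases upstream of the GENCODE M39 transcript start, 4 of the 7 genes scanned held it (Srf, Egr2, Fos and Fosb), against 2.76% of 21757 protein-coding promoters of the same length. Srf and Egr2 held 2 boxes each, beside 0.0598% of those promoters with 2 or more. The list was drawn up as SRF-driven genes, so these shares describe it and test nothing. Egr1, Fosl1 and Ier2 were not scanned. The stretches below run 5′ to 3′ on the gene's strand in the GRCm39 reference, which is not the ICR strain, and capitals mark the boxes.
Srf (chr17:46867120-46867210, minus strand): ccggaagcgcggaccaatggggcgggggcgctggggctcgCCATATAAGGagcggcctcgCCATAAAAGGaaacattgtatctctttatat
Fos (chr12:85520315-85520404, plus strand): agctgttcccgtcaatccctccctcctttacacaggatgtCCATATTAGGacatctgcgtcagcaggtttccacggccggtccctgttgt
Fosb (chr7:19044193-19044282, minus strand): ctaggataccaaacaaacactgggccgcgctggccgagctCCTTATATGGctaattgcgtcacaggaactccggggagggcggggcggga
Egr2, distal (chr10:67373284-67373373, plus strand): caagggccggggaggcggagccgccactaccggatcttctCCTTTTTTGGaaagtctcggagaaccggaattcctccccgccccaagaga
Egr2, proximal (chr10:67373587-67373676, plus strand): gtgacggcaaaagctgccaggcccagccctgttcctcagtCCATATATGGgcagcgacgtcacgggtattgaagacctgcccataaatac
The boxes began 51 and 31 bases before the start in Srf, 303 in Fos, 266 in Fosb, and 368 and 65 in Egr2. Both Egr2 stretches overlap annotated exons of the gene Gm66196. They also lie inside the span that the deposited table gives Egr2 (67371305 to 67376211), which differs from the GENCODE M39 one. The deposited spans of Srf, Egr1, Fos, Junb and Csrnp1 differ from the M39 ones as well, so models and promoters described here need not match those behind the counts. Junb, Csrnp1 and Klf6 held no CArG box in this window, which says only that these letters are not there. The AP-1 motif TGACTCA, searched on both strands, stood upstream of Csrnp1 alone of the 7 and in 7.57% of all promoters. The cAMP response element TGACGTCA was in 0 of 7 and in 1.96% of all promoters. TATAAA on either strand was found upstream of Srf, Fos and Junb, 3 of 7, against 24.3% of all promoters.

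**Figure D1:**
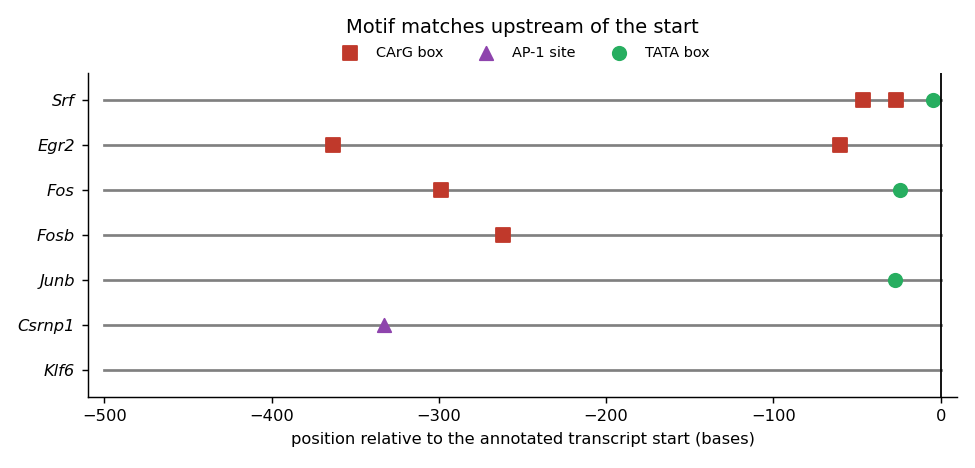
Motif matches in the 500 bases before the annotated transcript start of the 7 genes scanned (x axis: bases relative to the start; symbols: centre of each match). CArG boxes appear in Srf, Egr2, Fos and Fosb, and both boxes of Srf lie within 51 bases of the start.

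The gene models were short. Canonical transcripts of the 10 genes had 1 to 7 exons and spanned 1524 to 9353 bases of genome, with medians of 4 exons and 5674 bases, against medians of 9 exons and 22480 bases over 13652 tested protein-coding genes. Junb (chromosome 8, 85701113 to 85705347, minus strand, GRCm39, as the deposited table gives it) and Ier2 (chromosome 8, 85387960 to 85389483, minus strand) were single-exon models. The canonical model of Junb spans 1809 bases and that of Csrnp1 6174 bases, each fewer than the deposited span of the gene. The pentamer ATTTA, the core of AU-rich elements that shorten mRNA life, was counted in 3′ UTRs. It occurred at least 1 time in 9 of 10 members and in 72.1% of the tested genes, with 7 copies in Klf6, 5 in Csrnp1, 4 in Fos and 0 in Ier2. At least 4 copies were found in 3 of 10 members and in 33.2% of the tested genes. For at least 5 copies it was 2 of 10 members and 26.1% of the tested genes. Other genes cover 75.3% of the exon bases of Fosl1 (chromosome 19, 5497575 to 5505974, plus strand), Ccdc85b and Gm59617, both on the opposite strand. Whether the counting used strand is not given, so the level of Fosl1 is uncertain.

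The labelled cell type rests on few markers in these libraries. Of 11 granulosa marker rows, 6 stayed below 1 FPKM (fragments per kilobase of transcript, scaled to library depth) in every library, among them Foxl2 at 0.0577 to 0.204 FPKM and Amh at 0.0554 to 0.253 FPKM. Inhba, by contrast, stood at 87.5 to 146 FPKM. The 7 smooth muscle and pericyte markers summed to 1839 to 2502 FPKM in control and 1665 to 2525 FPKM with PS-MP, with Acta2 the most abundant. Libraries held 56967176 to 70240738 estimated counts, and the least covered value among the 10 genes was 348 counts (Fos in control 2).

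All 10 genes were expressed in every library and passed the filter on low counts. Ordered by mean FPKM over the 6 libraries, a scale that corrects for length, they ran Junb (56.4), Srf (35.9), Klf6 (32.2), Fosl1 (25.8), Ier2 (18.8), Egr1 (13.7), Csrnp1 (9.36), Egr2 (6.17), Fos (2.53) and Fosb (1.17). The ranges of neighbours from Srf down to Csrnp1 overlapped each with the next, so ranges alone do not separate these neighbours. Within every library, though, Klf6 lay above Fosl1. The ranges of Junb, Egr2, Fos and Fosb did not overlap with those of the genes ranked next to them. Junb lay at the 95.6th percentile of tested genes by mean FPKM and Fosb at the 35th percentile.

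**Figure D2:**
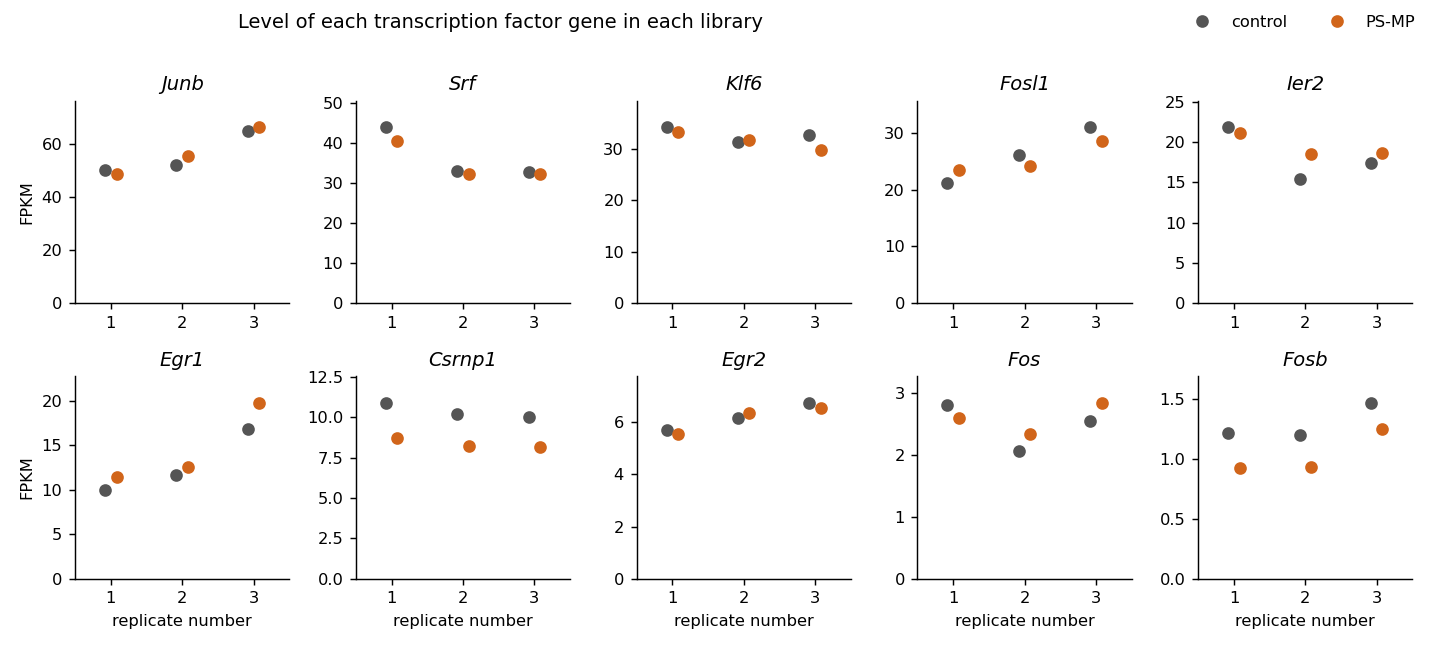
FPKM of each gene in each library (y axis, from 0) by replicate number (x axis), with control in grey and PS-MP in orange. Junb reaches 66.6 FPKM and Egr1 19.8 FPKM in PS-MP 3, whereas for Csrnp1 every grey point (10 to 10.9 FPKM) lies above every orange point (8.14 to 8.75 FPKM).

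The first comparison asked whether PS-MP altered these genes. With edgeR's quasi-likelihood test, requiring 1.5-fold and an adjusted p under 0.05, 0 of 17186 tested genes were called changed (0%), and 0 of the 10 members. Unadjusted p-values under 0.05 were found for 226 genes (1.32%) and for 1 member, and DESeq2 called 1 gene, not a member. With the replicate number as a block edgeR called 1 gene (0.00582%), again no member. In that fit 849 genes (4.94%) and 3 members (Csrnp1, Fosb and Egr1) had an unadjusted p under 0.05. In the edgeR fit without the block the lowest adjusted p was 1, and with the block each member had an adjusted p of 0.884 or more. Fold changes below come from the fit without the block unless the block is named, and are a description with their standard errors (SE). The 10 genes were put together with values of this contrast known, and nothing is read from their count. Their median log2 fold change was -0.04, with 4 positive and 6 negative values, and the median over all tested genes was 0.0.

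Csrnp1, a nuclear protein rich in cysteine and serine that is induced by AXIN1 (chromosome 9, 119800229 to 119813724, minus strand), was the member whose groups did not overlap. It stood at 10.9, 10.2 and 10 FPKM in control 1, 2 and 3 and at 8.75, 8.22 and 8.14 FPKM in PS-MP 1, 2 and 3. Every PS-MP library thus lay below every control library. The group levels were 10.4 ± 0.456 and 8.37 ± 0.331 FPKM (SD, n = 3 each, as for all group values below). The log2 fold change was -0.33 ± 0.08 (SE), and -0.33 ± 0.06 with the replicate block. The differences were -0.34, -0.34 and -0.30 within numbers 1, 2 and 3. Over all tested genes 2.68% were lower with PS-MP without overlap, 3.53% were higher without overlap, and 6.21% did not overlap in either direction.

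Among the AP-1 subunits, Fosb had the largest difference in size. FosB is a partner of Jun proteins (chromosome 7, 19036621 to 19043976, minus strand). It was at 1.22, 1.20 and 1.47 FPKM in control and 0.926, 0.936 and 1.25 FPKM with PS-MP. Each PS-MP library lay below the control of the same number, but PS-MP 3 lay above control 1 and 2, so the groups overlapped. The log2 fold change was -0.34 ± 0.17 (SE), and -0.35 ± 0.11 with the replicate block. Fos, the founding member of the family (chromosome 12, 85520664 to 85524047, plus strand), was at 2.81, 2.06 and 2.54 FPKM in control and 2.60, 2.34 and 2.84 FPKM with PS-MP. The groups overlapped, with control 2 lowest and PS-MP 3 highest, and the log2 fold change was 0.05 ± 0.16 (SE). Fosl1, which encodes Fra-1 and lacks the strong activation domain of Fos, had 26.2 ± 4.97 FPKM without particles and 25.4 ± 2.73 FPKM with them (-0.06 ± 0.15, log2, SE). Junb, the Jun protein that pairs with Fos proteins, had 55.8 ± 8.05 and 57 ± 8.96 FPKM (0.01 ± 0.14). For these 3 genes the SE exceeded the difference.

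Of the zinc finger genes, Egr1 (chromosome 18, 34992876 to 34998037, plus strand) was higher with PS-MP than with the control of the same number in 3 of 3 numbers, by 0.15, 0.08 and 0.24 on the log2 scale. Its groups overlapped at 12.9 ± 3.55 and 14.6 ± 4.57 FPKM, and the log2 fold change was 0.17 ± 0.26 (SE). It was -0.12 without PS-MP 3 and 0.39 without control 3, fits that leave the numbers unequal between the groups. With the replicate block it was 0.16 ± 0.05 (SE, adjusted p = 0.884, edgeR). Leaving out both libraries of 1 number in that fit gave 0.11 to 0.20. Egr2, a related factor known from myelinating Schwann cells (chromosome 10, 67371305 to 67376211, plus strand), had 6.19 ± 0.531 and 6.16 ± 0.530 FPKM (-0.03 ± 0.11). Klf6, a Krüppel-like factor (chromosome 13, 5911481 to 5920393, plus strand), had 32.8 ± 1.47 and 31.6 ± 1.71 FPKM (-0.07 ± 0.07). Srf itself (chromosome 17, 46859255 to 46867101, minus strand) had 36.6 ± 6.50 and 35.1 ± 4.70 FPKM (-0.08 ± 0.14). Ier2, a nuclear protein named for its rapid induction, had 18.2 ± 3.36 and 19.4 ± 1.45 FPKM (0.07 ± 0.14). The 95% intervals of the log2 fold changes without the block lay within -0.43 to 0.77 for Egr1 and within -0.42 to 0.39 for the other 4.

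**Figure D3:**
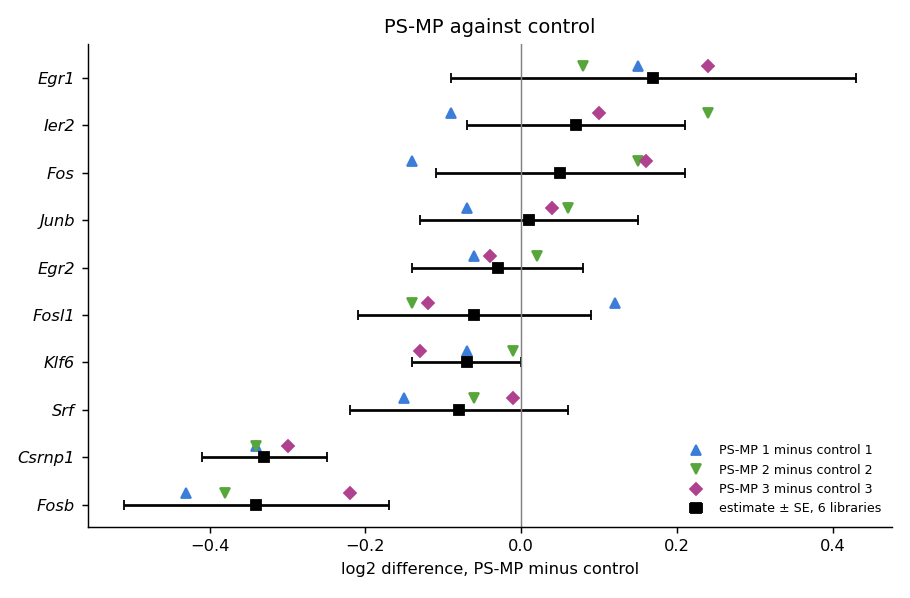
Log2 difference between PS-MP and control for each gene (x axis): squares with bars are the edgeR estimate ± SE over 6 libraries, coloured symbols the difference within each replicate number. Csrnp1 (-0.34, -0.34 and -0.30) and Fosb (-0.43, -0.38 and -0.22) lie left of 0 in every number, and Egr1 lies right of it. Srf (-0.15, -0.06 and -0.01) and Klf6 (-0.07, -0.01 and -0.13) also lie left of 0 in every number.

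The larger differences among libraries followed the replicate number that the groups share. With counts scaled to library size as CPM, 9324 genes lay above 10. Over these, number accounted for a median of 69.4% of the variance of log2 CPM and for more than 50% in 67.7% of the genes. Of the 10 members, 8 had more than 50%, up to 97.1% for Junb, 95.6% for Egr2, 93.7% for Egr1 and 92.9% for Srf. Csrnp1 stood at the other end, with 7.29% for number and 92.4% for treatment, and Fosb had 44.5% and 52.1%.

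**Figure D4:**
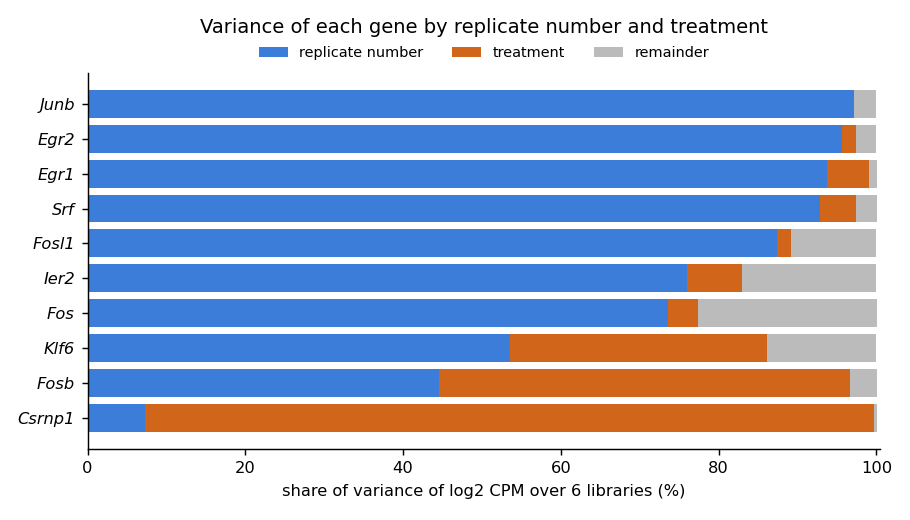
Share of the variance of log2 CPM over 6 libraries (x axis, %) that goes with replicate number (blue), with treatment (orange) and with neither (grey) for each gene. Number takes 97.1% in Junb and 7.29% in Csrnp1; it has 2 degrees of freedom, treatment 1 and the remainder 2.

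Egr1 differed most between numbers. It was at 10 and 11.4 FPKM in control 1 and PS-MP 1, at 11.7 and 12.6 FPKM in control 2 and PS-MP 2, and at 16.8 and 19.8 FPKM in control 3 and PS-MP 3. Both libraries of number 3 lay above all others and both of number 1 below all others. The highest number was 1.71-fold above the lowest (edgeR's quasi-likelihood test of the number terms, adjusted p = 0.000943). Egr1 was the member that passed both this test and 1.5-fold, 1 of 10, as did 7.34% of tested genes and 7.44% of those above 10 CPM.

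Without the fold threshold, Egr1, Junb, Fosl1 and Srf had an adjusted p under 0.05, 4 of 10 beside 14.9% of all tested genes. The members were chosen with their values between the replicates known, so nothing is read from this count. Junb was at 50.2, 52.1 and 65.0 FPKM in control 1, 2 and 3 and at 48.9, 55.6 and 66.6 FPKM in PS-MP 1, 2 and 3. Its 2 libraries of number 3 lay highest and its 2 of number 1 lowest (1.33-fold, adjusted p = 0.0103, edgeR). Without PS-MP 1 the adjusted p of Junb was 0.0749, at a log2 range of 0.34 against 0.41. Fosl1 was at 21.2, 26.2 and 31.1 FPKM in control and 23.5, 24.2 and 28.6 FPKM with PS-MP, in the same order of numbers (1.33-fold, adjusted p = 0.0324, edgeR). The adjusted p of Fosl1 was 0.157 without control 1 and 0.0799 without control 3, with log2 ranges of 0.29 and 0.36 against 0.41 with all libraries. With no filter on low counts it was 0.117 at a log2 range of 0.41. Its antisense neighbour Ccdc85b had the same order, from 16.1 FPKM in PS-MP 1 to 25.9 FPKM in control 3 (adjusted p = 0.00138), and its part in the value of Fosl1 was not tested. Egr2, at 5.55 to 6.74 FPKM, shared the order without passing (adjusted p = 0.213, edgeR). Egr1, Egr2, Junb and Fosl1, 4 of 10, had number 3 highest and number 1 lowest without overlap, beside 12.9% of genes above 10 CPM. Nothing is read from this count either, for the same reason.

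Srf showed the opposite order. It was at 44.1 and 40.5 FPKM in control 1 and PS-MP 1, and between 32.4 and 33.1 FPKM in the other 4 libraries. Both number 1 libraries lay apart on the high side (1.30-fold, adjusted p = 0.00995, edgeR). The adjusted p was 0.125 without control 1 and 0.0572 without PS-MP 1, with log2 ranges of 0.32 and 0.44 against 0.38 with all libraries. Ier2 was also highest in number 1, at 21.9 and 21.1 FPKM against 15.4 to 18.6 FPKM elsewhere, and did not pass (adjusted p = 0.111, edgeR). Fos was lowest in number 2, at 2.06 and 2.34 FPKM against 2.54 to 2.84 FPKM elsewhere, without passing (0.382). As a description over 6 libraries that share numbers in pairs, log2 CPM of Srf had a Pearson r of -0.77 with Egr1, -0.77 with Junb and -0.89 with Egr2. Egr1 and Junb had an r of 0.96, and Fos one of 0.23 with Egr1 and 0.20 with Junb.

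**Figure D5:**
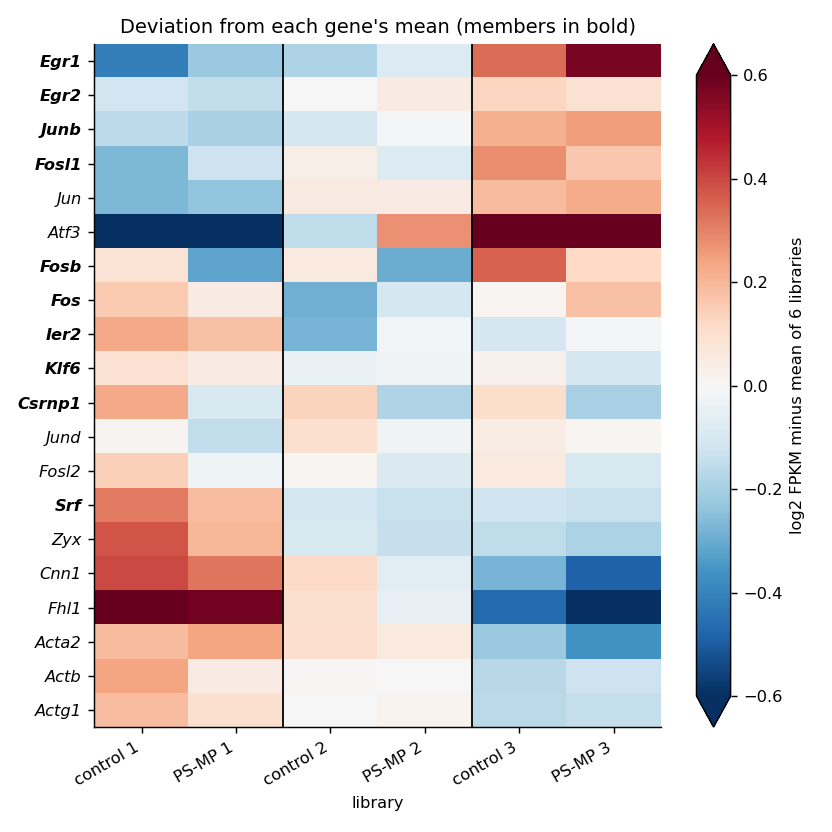
Deviation of log2 FPKM from each gene's mean over 6 libraries (colour, log2 units, saturating at ±0.6), with libraries side by side by replicate number and members in bold. Egr1, Junb, Fosl1, Jun and Atf3 are red in number 3 and blue in number 1, and Srf, Zyx, Cnn1 and Fhl1 the reverse.

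The patterns most like that of Srf, by Pearson r of log2 CPM over the 6 libraries among 9000 protein-coding genes above 10 CPM, were those of Zyx (0.996), Axin1 (0.996) and Siglecg (0.995). Zyx encodes zyxin, a focal adhesion protein and an SRF target. It was at 206, 149 and 143 FPKM in control 1, 2 and 3 and at 182, 144 and 139 FPKM in PS-MP 1, 2 and 3. Of the 9000 genes, 651 had an r above 0.9 with Srf. For Fos the nearest were Dhx8 (0.984), Maco1 (0.984) and Eif4enif1 (0.971), with 34 genes above 0.9, and for Klf6 they were Xpr1 (0.992), Rb1cc1 (0.991) and Lmbrd2 (0.990).

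Cytoskeletal targets of MRTF and SRF mostly had their highest mean in number 1, as Srf did, but not all shared its pattern. Srf averaged 42.3, 32.7 and 32.6 FPKM in numbers 1, 2 and 3. Some targets instead stood apart mainly by a low number 3. Cnn2 averaged 304, 297 and 267 FPKM in numbers 1, 2 and 3, Tagln 1080, 1049 and 842 FPKM, and Tpm2 291, 288 and 249 FPKM. Of 23 tested, 18 had their highest mean in number 1, 3 in number 2 and 2 in number 3, whereas 44.6% of genes above 10 CPM were highest in number 1. Between numbers 14 of 23 had an adjusted p under 0.05 (edgeR), 13 of them highest in number 1, against 14.9% of all tested genes and 1991 of the 9324 above 10 CPM. Of the 23, 3 also passed 1.5-fold, against 7.34% of all tested genes. The 3 were Actg2, Cnn1 and Fhl1, named after their values were seen. The list was chosen with earlier results of these data known, so nothing is read from its counts. Acta2, smooth muscle actin, was at 2064, 1938 and 1550 FPKM in control and 2130, 1885 and 1406 FPKM with PS-MP (adjusted p between numbers 0.00179). The cytoplasmic actins Actb and Actg1 were also lowest in number 3 (0.0463 and 0.0170). Against treatment 0 of 23 were called, 18 had a negative log2 fold change and the median was -0.06. Lmod1, a leiomodin that nucleates actin filaments, was at 30.7, 35.2 and 33.2 FPKM in control and 26.9, 29.0 and 27.4 FPKM with PS-MP, without overlap (log2 fold change -0.27 ± 0.08, SE), the 1 of 23 without overlap beside 6.21% of all tested genes. Myl9, a myosin light chain, had a log2 fold change of -0.11 ± 0.10.

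Marker levels also differed between the numbers. Granulosa markers summed to 167, 129 and 126 FPKM in control 1, 2 and 3 and to 153, 134 and 105 FPKM in PS-MP 1, 2 and 3. Of their 8 tested genes, 2 passed between numbers, Fst and Gata4, both highest in number 1. The granulosa sum was mostly Inhba, at 146, 111 and 109 FPKM in control and 133, 116 and 87.5 FPKM with PS-MP. Gja1 ran the other way, at 9.34, 10.1 and 11.3 FPKM in control and 10.2, 11.3 and 11.7 FPKM with PS-MP. Inha was likewise lowest in number 1 within each group. Over all tested genes 7.34% passed, the share to set beside each count in this paragraph. Leukocyte markers summed to between 2.89 and 4.37 FPKM, and 0 of 3 tested passed. Endothelium markers summed to 0.133 to 0.39 FPKM, and 1 of 3 tested passed. Of 9 ovarian surface epithelium markers, 8 were tested and 6 passed between numbers (edgeR, adjusted p under 0.05 and 1.5-fold). Their summed level was 28.7, 10.6 and 4.50 FPKM in control 1, 2 and 3 and 33.4, 10.9 and 4.51 FPKM in PS-MP 1, 2 and 3, with Cdh1 at or below 0.0228 FPKM. Smooth muscle and pericyte markers summed to 2502, 2306 and 1839 FPKM in control and 2525, 2211 and 1665 FPKM with PS-MP, and 3 of 7 passed. These were Des, Myh11 and Cnn1, each lowest in number 3. Most of the sum was Acta2, whose range between numbers was below 1.5-fold. Pdgfrb stayed at 37.0 to 42.8 FPKM (adjusted p between numbers 0.84, edgeR). Rgs5, at or below 0.278 FPKM, was highest in number 3, and Cspg4 was lowest in number 1 within each group. Fibroblast and theca stroma markers summed to 1374, 999 and 793 FPKM and to 1160, 952 and 807 FPKM, and 3 of 6 passed. The falling sum was that of Col1a1 and Col1a2. Dcn, one of the 3 that passed, ran the other way, at 6.72, 8.36 and 12.4 FPKM in control and 8.68, 10.7 and 11.5 FPKM with PS-MP. Thy1 was also lowest in number 1 and highest in number 3. The part of any of these cell types in the levels of Srf, Egr1 and Junb was not tested. In bulk RNA, fewer cells of a type and less RNA per cell cannot be told apart. Summed levels of the epithelial, smooth muscle and fibroblast lists differed less between the groups than between the numbers.

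Of 17 other immediate early transcription factors tested, 9 were highest in number 3 and 5 in number 1, and 36.7% of genes above 10 CPM were highest in number 3. The 5 of 17 that had an adjusted p under 0.05 between numbers (edgeR), beside 14.9% of all tested genes, were each highest in number 3. This list too was chosen with earlier results known, so nothing is read from its counts. Jun, the main AP-1 partner, was at 25.8, 32.3 and 35.5 FPKM in control and 26.4, 32.2 and 36.3 FPKM with PS-MP (adjusted p = 0.00528). Ier5, an immediate early nuclear protein, was at 32.3 FPKM in PS-MP 1 and 42.4 FPKM in control 3 (0.0163). Atf3, a stress-induced bZIP factor named after its values were seen, ran from 0.438 FPKM in control 1 to 5.10 FPKM in control 3 and from 0.813 to 4.38 FPKM in PS-MP 1 and 3 (0.00105). Against treatment 0 of 17 were called, with a median log2 fold change of -0.06. Fosl2, Jund and Mafk were the 3 of 17 without overlap, beside 6.21% of all tested genes. All 3 were lower with PS-MP, as were 2.68% of all tested genes without overlap. Fosl2, which encodes Fra-2, was at 23.1, 21.1 and 21.8 FPKM in control and 20.6, 19.7 and 19.6 FPKM with PS-MP (-0.16 ± 0.06, log2, SE). Mafk, a small Maf protein, had a log2 fold change of -0.18 ± 0.07, and Jund one of -0.13 ± 0.07.

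Of 26 SRF cofactors and upstream signalling genes, 0 were called against treatment, with a median log2 fold change of -0.02. Between numbers 5 of 26 had an adjusted p under 0.05 (edgeR), near the 14.9% of all tested genes and the 1991 of 9324 above 10 CPM. Highest in number 1 were 14 of the 26, beside 44.6% of genes above 10 CPM. Mrtfa was at 24.3 to 26.6 FPKM and Mrtfb at 3.5 to 4.3 FPKM in all libraries, and neither passed between numbers (adjusted p = 0.677 and 0.648, edgeR). Myocd, the cofactor restricted to heart and smooth muscle, was at or below 0.202 FPKM. Of the cofactors that MAP kinases phosphorylate, Elk3 was the most abundant at 30.8 to 35.6 FPKM. Of the 5 with an adjusted p under 0.05 between numbers, 4 were highest in number 1 and 1 in number 3. The 1 was Mapk3, which encodes ERK1, at 83.0 and 92.1 FPKM in number 3 against 67.7 to 79.9 FPKM elsewhere (adjusted p = 0.0207, edgeR). Map2k1, its activating kinase, had 75.1 to 83.6 FPKM, and Rhoa, the GTPase that drives actin assembly, 71.2 to 77.6 FPKM, neither passing (0.673 and 0.692).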

How the data were processed

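The submitters' processing notes name cutadapt 1.9, FastQC, HISAT2 2.2.1, StringTie 2.1.6 and the build GRCm39. Per the file headers, each gene row of the deposited table carries 1 FPKM value and 1 count for every library. The series design names ballgown for the authors' FPKM. The library kit keeps strand, per the labels' protocols; use of strand in counting and the annotation version are not given in the sources used here. Among the deposited counts the value 4 occurred 6687 times, 3 occurred 3161 times and 5 occurred 2040 times, and they were therefore taken as estimated counts; being whole, none was altered by rounding. Columns were matched to samples by the group's initial and the replicate number. A further 12 columns carry the same initials and numbers in another spelling and were not used; the labels alone do not say which spelling belongs to these samples, and the spelling used is the one that the table's other sheets repeat.

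The tests came from edgeR 4.0.16, run in R 4.3.3 with TMM scaling (filterByExpr, quasi-likelihood, two-sided, treatment as the only term) on 17186 genes with Benjamini-Hochberg adjustment; a gene was called at an adjusted p under 0.05 and 1.5-fold, the thresholds the series states. A second model with number and treatment tested the replicate-number terms, with the fold taken between the highest and lowest number. Scripts were tested on simulated data. Deviations from group means over 9324 genes above 10 CPM correlated at 0.801, 0.145 and 0.603 between control and PS-MP libraries numbered 1, 2 and 3, each above 0.1, the level used for treating numbers as pairs; so did 2 pairs of unlike number (0.361 and 0.162). FPKM summed to 274176.5 to 283405.4 in control and 284964.2 to 290680.9 in PS-MP libraries, so FPKM means lie slightly higher with PS-MP than TMM-scaled fold changes. DESeq2 1.42.0 and limma 3.58.1 served as alternatives.

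Members and gene lists were chosen with earlier results of these data known. Named beside the members are, per list, the 3 tested genes with the highest mean FPKM and the 2 with the lowest unadjusted p. The 3 genes most like Srf, Fos and Klf6 are named too. Atf3, Actg2, Cnn1, Fhl1, Mrtfb, Elk3, Ccdc85b, Dcn, Thy1, Dusp1, Plk2 and Btg2 were also named after their values were seen. So were Inhba, Inha, Gja1, Des, Myh11, Pdgfrb, Rgs5, Cspg4, Cnn2, Tagln and Tpm2. Promoter sequence and gene models came from the GRCm39 genome with GENCODE M39.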

Additional observations from a re-analysis of the deposited data

How the results depend on the processing

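Each of the 178 alternative log2 fold changes of the members against treatment moved by less than 1 SD of log2 CPM within the groups. That SD includes the differences between numbers. With 3 libraries per group, leaving out 1 can hardly move a group mean that far, so nothing about stability is read from this count. Csrnp1 stayed between -0.36 and -0.28 and Fosb between -0.50 and -0.17. The sign of Junb differed in 5 of 18 alternatives, that of Egr2 and of Fos in 2 each and that of Srf, Egr1, Fosl1 and Ier2 in 1 each. The median of the members ranged from -0.09 to 0.03. Fos and Fosb were not tested above 10 CPM.

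Genes called against treatment numbered 1 with DESeq2, 1 with the replicate block and 4 with DESeq2 and the replicate block, a fit added after seeing the data. Leaving out 1 library gave 0 to 1 called genes (1 without PS-MP 2), and with the replicate block leaving out both libraries of a number gave 1 (number 1) to 15 (number 2), with 9 without number 3. No member was among them in any fit, since none reached 1.5-fold. The other alternatives run gave 0. Between numbers 1261 genes were called, 743 with no filter, 704 above 10 CPM, and 731 to 1453 with 1 library left out, with 749 without control 1 and 731 without PS-MP 1. Egr1 was called in 11 of 11 alternatives (adjusted p 5.88e-17 to 0.0122). Groups of 3 libraries limit the precision, and the lone library of a number is assumed to vary like the others.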

Other observations

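Of 25 tested immediate early genes that do not encode transcription factors, 14 were highest in number 3 and 6 in number 1, and 5 had an adjusted p under 0.05 between numbers (edgeR), 4 of them highest in number 3. Of genes above 10 CPM 36.7% were highest in number 3, and 14.9% of all tested genes had such a p, so 5 of 25 is near the background. Plk2, a polo-like kinase, was at 54.1, 59.3 and 78.9 FPKM in control 1, 2 and 3 and at 55.1, 58.6 and 73.0 FPKM in PS-MP 1, 2 and 3 (adjusted p = 0.00339). Btg2, an antiproliferative protein, was lowest in number 1, at 19.9 and 20.5 FPKM against 26.2 to 28.8 FPKM elsewhere (0.00389). Against treatment 0 of 25 were called, 18 had a negative log2 fold change and the median was -0.07. The matricellular genes Ccn2 and Ccn1, targets of YAP and SRF, were the most abundant. Ccn2 was at 720 to 741 FPKM in control and 686 to 705 FPKM in PS-MP libraries, without overlap (-0.08 ± 0.06, log2, SE), and Ccn1 had a log2 fold change of -0.11 ± 0.07. Ier3, a survival factor, ranged from 252 to 316 FPKM with overlapping groups. Zfp36l1, an RNA-binding protein that destabilizes AU-rich mRNAs, was lower with PS-MP without overlap, at 10.7 to 11.9 against 9.62 to 10.5 FPKM (-0.18 ± 0.08). Dusp1, a phosphatase that turns off MAP kinases, was at 17.0 to 17.4 against 15.5 to 16.8 FPKM (-0.11 ± 0.07). On the CPM scale Ccn2, Zfp36l1 and Dusp1 were the 3 of 25 without overlap, beside 6.21% of all tested genes; on the FPKM scale Ccn1 did not overlap either.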
